A study of Mus musculus with 12 samples.

Results

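The genes described here mark Kupffer cells, the resident macrophages of the liver, and myeloid cells in general. The list held 39 gene symbols chosen by name, and 38 of them had a probe set of their own among the 12393 genes of the arrays. Timd4, a receptor for phosphatidylserine on dying cells, had none and was not measured. Of the 38 genes, 6 are known mainly from Kupffer cells and other resident macrophages (Clec4f, Cd5l, Marco, Vsig4, Folr2 and Cd163) and are called Kupffer-specific below, and 32 are general myeloid genes. A gene with several probe sets is represented by the brightest one on average.

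Kupffer cells line the hepatic sinusoids, where they take up bacteria, aged red cells, lipoproteins and dying cells from portal blood. In the steady state they maintain themselves locally under the cytokine CSF1 and the transcription factor PU.1, and blood monocytes can replace them when they are lost. Retinoids reach all liver cells, since stellate cells store vitamin A and hepatocytes secrete retinol. RXRα is a nuclear receptor that pairs with the retinoic acid receptors and with several other receptors of lipid metabolism, and macrophages express it as well as hepatocytes.

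Liver RNA of 12 mice was hybridized to Affymetrix mouse genome arrays, with 3 livers in each of 4 groups. KO_RA livers came from mice deficient in hepatocyte RXRα on a diet with all-trans retinoic acid (RA) at 150 mg/kg for 7 days, and KO livers from such mice on the normal diet. WT_RA livers came from wild type mice on the RA diet, and WT livers from wild type mice on the normal diet. All were males of the C57BL/6 background, and the wild type mice were 12 weeks old. In KO mice, Cre recombinase driven by the albumin promoter removes a floxed exon that encodes the DNA-binding domain, so a truncated protein can still be made, and macrophages are not the cells in which the albumin promoter acts. Whole liver was measured, so more cells of a type and more RNA per cell cannot be told apart for any gene below. The titles call the samples biological replicates, and p-values measure the spread between these livers only.

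Values are on the log2 scale of the deposited table, on which a difference of 1 is a factor of 2. Array medians lay between 6.26 and 6.35, lower quartiles between 4.87 and 5.02, and rank correlations within groups between 0.976 and 0.994. A control for the 3′ end of beta-actin read low on 2 arrays, at 9.12 on KO 1 and 9.40 on WT_RA 3, with 12.1 to 12.9 on the other 10. The main counts and medians over the list are therefore given with and without them. Single differences against WT that this moves by over 1.5 times are given too. Those of KO_RA against KO and against WT_RA are counted. The 2 Rxra probe sets ranged from 10.00 to 10.91 and from 8.28 to 9.18 over the 12 arrays, and KO and WT livers overlapped in both. Their position relative to the removed exon was not looked up, so Rxra is no check of the genotype labels. The array medians of 10 hepatocyte markers lay between -0.09 and 0.06 relative to the WT mean, but single markers varied more. Apob, which encodes the main protein of hepatic lipoproteins, read 11.23 on KO 1 and 11.30 on WT_RA 3, with 12.87 to 13.28 on the other 10 arrays.

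The promoters of the Kupffer-specific genes were read for the letters of 2 regulators named above. PU.1, the product of Spi1 and the master factor of the myeloid lineage, binds around the letters GAGGAA, and the retinoid receptors bind around the hexamer AGGTCA. Both were searched on both strands, and the matches did not overlap. Of the 38 genes, 29 had a promoter of 300 bases (250 before to 50 after the start) in the RefSeq tables of GRCm38.p6. GAGGAA occurred in 18 of these 29 genes (62.1%), against 31.3% of all 27025 genes in the tables. AGGTCA occurred in 5 of the 29 (17.2%), against 18.1% of all genes. A match describes the letters only and shows no binding. Cd5l, Clec4f and Vsig4 are shown as Kupffer-specific genes of high level, and Cd163 and Mrc1 because their differences passed the test, a choice made after their values were seen. Each runs 5′ to 3′ on the strand of the gene, and capitals mark every match. On the opposite strand GAGGAA is written TTCCTC. For the retinoid hexamer the opposite strand is written TGACCT.
Cd5l (chr3:87357631-87357930, plus strand): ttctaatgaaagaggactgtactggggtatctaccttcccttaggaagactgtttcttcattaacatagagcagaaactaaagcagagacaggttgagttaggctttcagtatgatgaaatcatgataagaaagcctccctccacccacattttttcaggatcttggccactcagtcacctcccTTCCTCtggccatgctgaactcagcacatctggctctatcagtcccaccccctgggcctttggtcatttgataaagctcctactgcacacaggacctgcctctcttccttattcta
Clec4f (chr6:83656067-83656366, minus strand): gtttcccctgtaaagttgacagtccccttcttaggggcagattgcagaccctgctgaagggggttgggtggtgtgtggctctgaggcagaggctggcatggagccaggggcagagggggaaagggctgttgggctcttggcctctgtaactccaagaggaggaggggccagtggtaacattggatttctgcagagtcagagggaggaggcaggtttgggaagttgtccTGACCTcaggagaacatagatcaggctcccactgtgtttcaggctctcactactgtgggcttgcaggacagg
Vsig4 (chrX:96293389-96293688, minus strand): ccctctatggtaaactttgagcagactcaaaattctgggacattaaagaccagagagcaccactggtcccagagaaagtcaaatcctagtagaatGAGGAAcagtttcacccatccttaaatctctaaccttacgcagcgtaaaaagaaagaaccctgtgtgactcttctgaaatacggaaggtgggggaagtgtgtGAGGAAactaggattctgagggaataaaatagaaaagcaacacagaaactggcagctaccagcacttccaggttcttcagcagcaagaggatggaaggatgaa
Cd163 (chr6:124304401-124304700, plus strand): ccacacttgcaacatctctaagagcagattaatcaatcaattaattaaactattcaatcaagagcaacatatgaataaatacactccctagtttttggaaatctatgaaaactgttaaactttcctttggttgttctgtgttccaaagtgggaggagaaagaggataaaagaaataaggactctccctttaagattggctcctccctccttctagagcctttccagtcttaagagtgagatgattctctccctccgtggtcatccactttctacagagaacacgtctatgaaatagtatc
Mrc1 (chr2:14229164-14229463, plus strand): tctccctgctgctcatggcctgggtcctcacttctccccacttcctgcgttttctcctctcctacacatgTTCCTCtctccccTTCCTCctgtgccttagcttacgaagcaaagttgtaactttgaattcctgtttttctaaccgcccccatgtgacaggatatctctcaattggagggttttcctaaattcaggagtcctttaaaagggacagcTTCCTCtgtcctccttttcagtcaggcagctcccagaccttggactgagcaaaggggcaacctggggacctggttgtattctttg

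Mrc1 carried 3 matches to GAGGAA, Vsig4 carried 2 and Cd5l carried 1. Clec4f held the only match to AGGTCA among the windows shown, and Cd163 held neither hexamer. The 2 windows of Folr2 held neither as well.

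Nearly all listed genes lay above the WT mean in the other 3 groups, and they varied together from liver to liver. The median difference of the 38 genes from the WT mean was 0.33, 0.26 and 0.46 on the KO_RA arrays, 0.31, 1.96 and 0.78 on the KO arrays, and 0.33, 0.45 and 0.85 on the WT_RA arrays. The WT arrays themselves stood at -0.13, -0.01 and 0.12. KO livers therefore differed strongly among themselves. KO 2 was the highest of all 12 arrays for 31 of the 38 genes, a place it held for 7.71% of all genes, and KO 1 was the lowest KO array for 32. On KO 2, 31 listed genes lay over 1 above the WT mean and 19 over 2, and on KO 1 none lay over 1. The SD of a listed gene over the 3 KO arrays had a median of 0.81, against 0.135 for all genes. In the other groups this median was 0.155 for KO_RA, 0.307 for WT_RA and 0.169 for WT, against 0.111, 0.118 and 0.133 for all genes. The KO_RA livers were thus more alike in these genes than the KO and WT_RA livers.

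**Figure D1:**
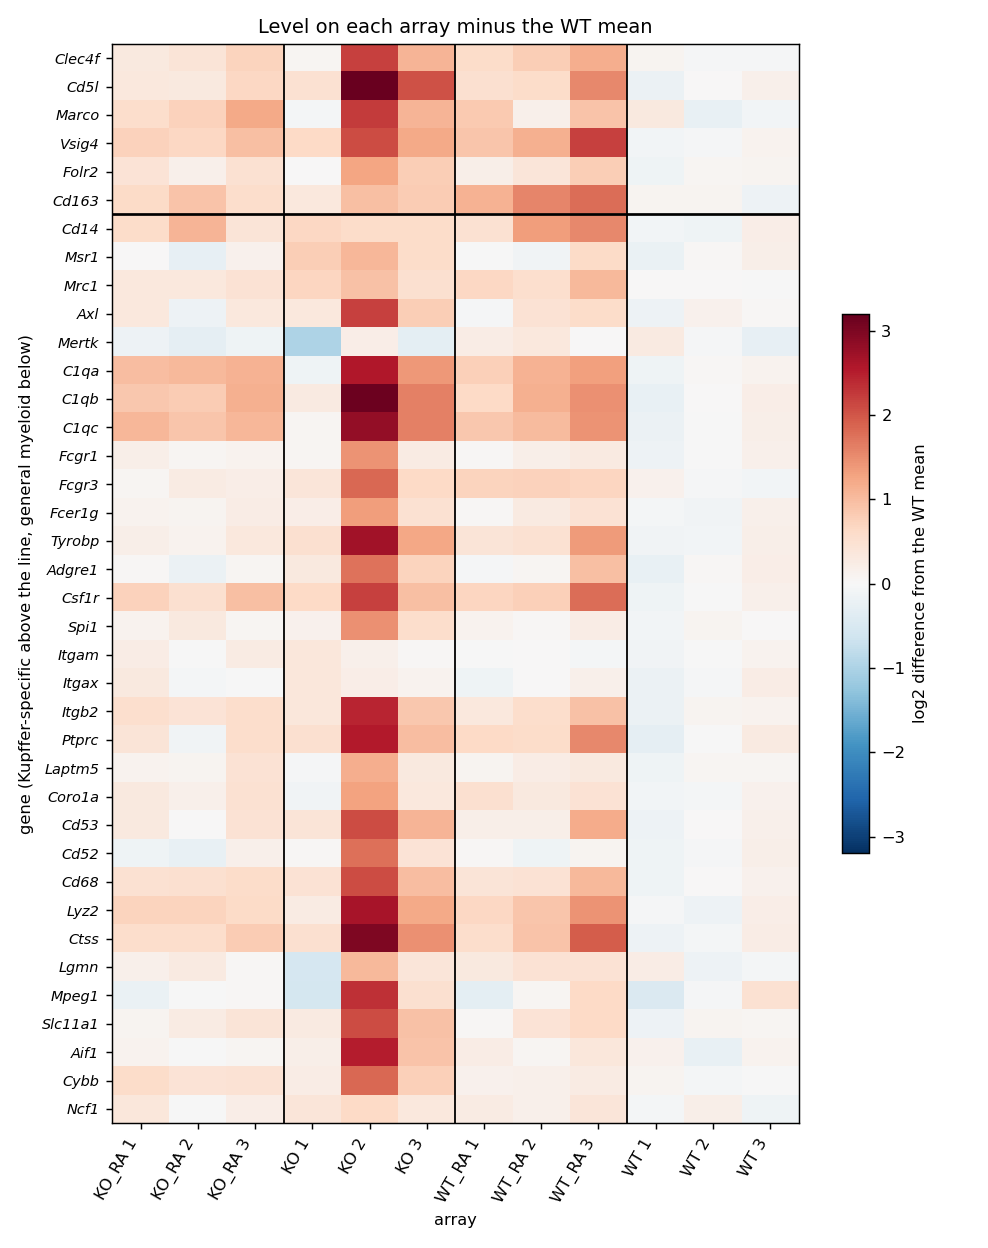
Level of the 38 genes (rows, Kupffer-specific above the line) on each of the 12 arrays (columns), as log2 difference from the WT mean of the gene. KO 2 is the darkest column, with 31 genes over 1, KO 1 has none over 1, and the 3 KO_RA columns are more alike than the 3 KO columns.

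Kupffer-specific genes were higher in the means of all 3 other groups than in WT, and Cd163 was the only one whose difference passed the test in any comparison. Differences and standard errors (SE) come from limma over all 12 arrays, with Benjamini-Hochberg adjustment over 12393 genes, and a gene is called at an adjusted p under 0.05. The model has 1 spread per gene for all 4 groups, so a wide KO spread enlarges the SE of comparisons without KO too. Cd163, the receptor for complexes of haptoglobin and haemoglobin, stood at 6.49, 6.79 and 6.45 in KO_RA livers, 6.22, 6.85 and 6.68 in KO livers, 6.99, 7.44 and 7.67 in WT_RA livers and 5.96, 5.96 and 5.71 in WT livers. All 3 WT_RA livers lay above the other 9. Cd163 rose by 1.49 ± 0.19 in WT_RA against WT livers, a factor of 2.81 (adjusted p = 0.00299), and was called in every setting tried, the 12 fits without 1 array included. Under RA it was lower in KO_RA than in WT_RA livers, by -0.79 ± 0.19 (adjusted p = 0.0381), with no overlap. That call was lost in 6 of 12 fits without 1 array, among them the one without WT_RA 3, when KO 1 and WT_RA 3 were dropped together, and when only the groups of the contrast were fitted. KO and WT livers differed by 0.70 ± 0.19 (adjusted p = 0.101), and KO_RA and KO livers by -0.00 ± 0.19.

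Vsig4, the complement receptor of the immunoglobulin superfamily with which Kupffer cells catch opsonized bacteria, stood at 7.73, 7.67 and 7.96 in KO_RA livers, 7.65, 9.08 and 8.21 in KO livers, 7.89, 8.13 and 9.18 in WT_RA livers and 6.92, 6.96 and 7.12 in WT livers. The 9 arrays of the other groups all lay above the 3 WT arrays. The difference was 1.40 ± 0.34 for WT_RA against WT (adjusted p = 0.0795) and 1.31 ± 0.34 for KO against WT (adjusted p = 0.0943), and neither passed. Clec4f, a galactose-binding lectin receptor of mouse Kupffer cells, stood at 8.11, 8.23 and 8.53 in KO_RA livers, 7.88, 9.99 and 8.90 in KO livers, 8.39, 8.59 and 8.98 in WT_RA livers and 7.89, 7.77 and 7.77 in WT livers. All KO_RA and WT_RA arrays lay above all WT arrays, and of the KO arrays KO 1 lay within the WT range and KO 2 highest. Its differences were 0.85 ± 0.38 in WT_RA (adjusted p = 0.412) and 1.11 ± 0.38 in KO livers (adjusted p = 0.18), each against WT.

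Cd5l, a scavenger protein that tissue macrophages secrete, had the largest KO difference of the list. It stood at 9.06, 9.04 and 9.38 in KO_RA livers, 9.21, 11.89 and 10.75 in KO livers, 9.22, 9.31 and 10.26 in WT_RA livers and 8.53, 8.73 and 8.88 in WT livers. KO and WT livers did not overlap, but the KO arrays spanned 9.21 to 11.89. KO livers were 1.90 ± 0.50 above WT livers, a factor of 3.73 (adjusted p = 0.0954), and KO_RA livers -1.46 ± 0.50 relative to KO livers (adjusted p = 0.229). Marco, a scavenger receptor that binds bacteria, stood at 5.34, 5.51 and 5.96 in KO_RA livers, 4.70, 7.01 and 5.85 in KO livers, 5.6, 4.93 and 5.68 in WT_RA livers and 5.07, 4.54 and 4.69 in WT livers. Its mean in WT livers lay below the lower quartile of the arrays, and groups overlapped in WT_RA against WT and in KO against WT. Folr2, a folate receptor of resident macrophages, stood at 6.99, 6.70 and 7.04 in KO_RA livers, 6.55, 7.80 and 7.32 in KO livers, 6.72, 6.92 and 7.32 in WT_RA livers and 6.41, 6.60 and 6.62 in WT livers. Its differences were 0.44 ± 0.25 in WT_RA and 0.68 ± 0.25 in KO livers, each against WT, and KO 1 lay within the WT range.

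**Figure D2:**
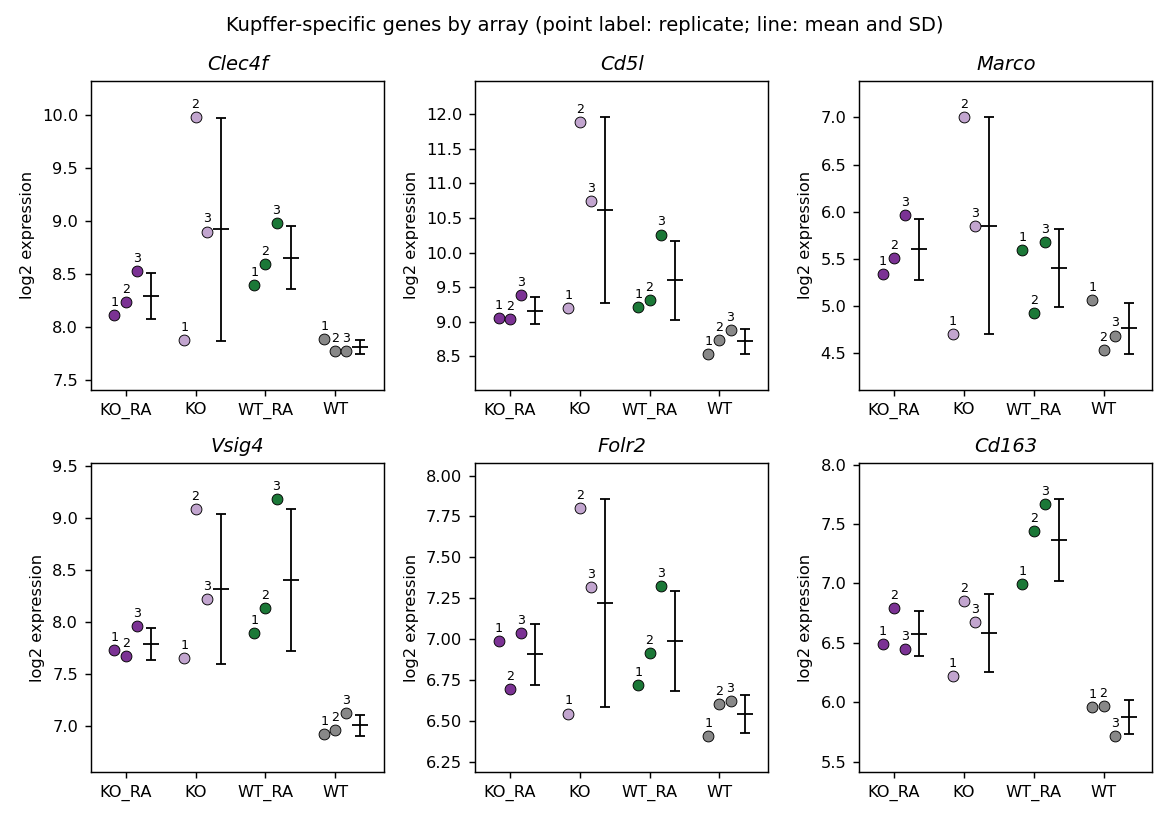
Log2 expression of the 6 Kupffer-specific genes (panels, each with its own vertical scale) on the arrays of the 4 groups. Points are livers labelled by replicate number, and the line is the mean with SD (n = 3). KO 2 is the highest array for Clec4f, Cd5l, Marco and Folr2, while for Cd163 all 3 WT_RA livers lie above the others.

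Among pattern and scavenger receptors, Cd14 and Mrc1 were higher in WT_RA than in WT livers, and Mrc1 was higher in KO than in WT livers too. Mrc1, the mannose receptor, which sinusoidal endothelium also expresses, stood at 8.34, 8.34 and 8.48 in KO_RA livers, 8.69, 8.94 and 8.52 in KO livers, 8.67, 8.55 and 9.05 in WT_RA livers and 8.01, 8.01 and 8.0 in WT livers. The WT arrays agreed closely (SD 0.0103), and all 9 other arrays lay above them. Mrc1 rose by 0.75 ± 0.13 in WT_RA livers (adjusted p = 0.0209) and by 0.71 ± 0.13 in KO livers (adjusted p = 0.0281), each against WT. Both calls held in 8 of 12 fits without 1 array. Dropping any 1 of the WT arrays ended both, dropping WT_RA 3 the call in WT_RA and dropping KO 2 the call in KO livers, and both were lost when only the groups of the contrast were fitted. KO_RA livers lay below KO livers by -0.33 ± 0.13 with no overlap (adjusted p = 0.301).

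Cd14, the co-receptor for lipopolysaccharide, which hepatocytes can also make, stood at 6.56, 7.07 and 6.38 in KO_RA livers, 6.64, 6.56 and 6.56 in KO livers, 6.46, 7.32 and 7.51 in WT_RA livers and 5.88, 5.85 and 6.20 in WT livers. WT_RA 2 and WT_RA 3 were the highest arrays, and WT_RA 1 lay within the range of KO_RA. Cd14 rose by 1.12 ± 0.24 in WT_RA against WT livers (adjusted p = 0.0452), and 9 of 12 fits without 1 array lost this call, as did the fit of WT_RA and WT alone. Its KO arrays agreed closely, unlike those of most listed genes, and lay 0.61 ± 0.24 above WT (adjusted p = 0.242). Msr1, the class A scavenger receptor, stood at 6.59, 6.33 and 6.71 in KO_RA livers, 7.37, 7.66 and 7.17 in KO livers, 6.57, 6.46 and 7.20 in WT_RA livers and 6.38, 6.62 and 6.76 in WT livers. KO livers lay above both WT and KO_RA livers without overlap, by 0.81 ± 0.19 over WT (adjusted p = 0.0672), and KO_RA livers differed from KO livers by -0.85 ± 0.19 (adjusted p = 0.0733). WT_RA against WT gave only 0.16 ± 0.19, and all 4 Msr1 probe sets gave between 0.15 and 0.25 there. The size of the other differences rested on the probe set, since the other 3 gave 0.73, 0.33 and 0.37 for KO against WT and -0.56, -0.18 and -0.31 for KO_RA against KO.

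The 3 complement chains had like patterns. C1q, which macrophages secrete, is built of the products of C1qa, C1qb and C1qc and starts the classical complement pathway. C1qa stood at 8.61, 8.65 and 8.73 in KO_RA livers, 7.47, 10.17 and 9.01 in KO livers, 8.37, 8.74 and 8.93 in WT_RA livers and 7.47, 7.66 and 7.72 in WT livers. C1qb stood at 8.12, 8.06 and 8.38 in KO_RA livers, 7.54, 10.38 and 8.85 in KO livers, 7.88, 8.38 and 8.71 in WT_RA livers and 7.02, 7.27 and 7.45 in WT livers. C1qc stood at 8.09, 7.92 and 8.10 in KO_RA livers, 7.10, 9.85 and 8.65 in KO livers, 7.89, 8.05 and 8.49 in WT_RA livers and 6.86, 7.03 and 7.24 in WT livers. For all 3 chains the KO_RA and WT_RA arrays lay above every WT array, whereas KO 1 lay close to WT and KO 2 far above. The WT_RA differences against WT were 1.06 ± 0.47, 1.08 ± 0.51 and 1.10 ± 0.48 for C1qa, C1qb and C1qc (adjusted p between 0.393 and 0.442). The KO differences against WT were 1.27 ± 0.47, 1.68 ± 0.51 and 1.5 ± 0.48 (adjusted p between 0.141 and 0.215).

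Fc receptors and their adaptors had their highest means in KO livers. Tyrobp, which encodes the adaptor DAP12, stood at 6.69, 6.60 and 6.83 in KO_RA livers, 7.00, 9.18 and 7.73 in KO livers, 6.90, 6.97 and 7.86 in WT_RA livers and 6.40, 6.40 and 6.69 in WT livers. All 3 KO_RA arrays lay below all 3 KO arrays and all 3 WT_RA arrays above all 3 WT arrays. Its differences were 1.47 ± 0.42 for KO against WT (adjusted p = 0.125), 0.75 ± 0.42 for WT_RA against WT and -1.26 ± 0.42 for KO_RA against KO (adjusted p = 0.219). Fcgr3, a low-affinity receptor for IgG, stood at 5.49, 5.69 and 5.65 in KO_RA livers, 5.81, 7.27 and 6.07 in KO livers, 6.14, 6.17 and 6.13 in WT_RA livers and 5.57, 5.38 and 5.34 in WT livers. The WT_RA arrays were nearly equal and lay above WT by 0.71 ± 0.27 (adjusted p = 0.304), and KO_RA lay below both KO and WT_RA without overlap. The SD of Fcgr3 was 0.78 in KO, 0.021 in WT_RA and 0.12 in WT livers, and the SE rests on all 4 groups. With WT_RA and WT fitted alone, Fcgr3 was called. Fcer1g, the signalling gamma chain of Fc receptors, stood at 6.35, 6.32 and 6.47 in KO_RA livers, 6.44, 7.56 and 6.73 in KO livers, 6.28, 6.52 and 6.69 in WT_RA livers and 6.17, 6.12 and 6.40 in WT livers. It differed by 0.68 ± 0.22 between KO and WT (adjusted p = 0.17). Fcgr1, the high-affinity IgG receptor, was dim, with group means below the lower quartile in all groups but KO.

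The receptors and the factor that define the lineage had their highest means in KO livers too. Csf1r, the receptor for CSF1 and IL34 on which Kupffer cells depend, stood at 9.63, 9.42 and 9.86 in KO_RA livers, 9.54, 11.08 and 9.86 in KO livers, 9.59, 9.67 and 10.69 in WT_RA livers and 8.77, 8.88 and 9.05 in WT livers. All 9 other arrays lay above the WT arrays, and the differences were 1.08 ± 0.36 for WT_RA (adjusted p = 0.205) and 1.26 ± 0.36 for KO (adjusted p = 0.119), each against WT. The other 2 Csf1r probe sets gave smaller differences, 0.78 and 0.28 in WT_RA and 1.09 and 0.63 in KO livers. Adgre1, whose product is the classical surface antigen of mouse macrophages, stood at 6.75, 6.53 and 6.78 in KO_RA livers, 7.04, 8.45 and 7.44 in KO livers, 6.67, 6.79 and 7.68 in WT_RA livers and 6.48, 6.75 and 6.93 in WT livers. KO livers lay above WT and KO_RA livers without overlap, by 0.93 ± 0.32 over WT (adjusted p = 0.191), while WT_RA and WT overlapped. Spi1, which encodes PU.1, stood at 5.16, 5.37 and 5.12 in KO_RA livers, 5.19, 6.52 and 5.62 in KO livers, 5.16, 5.08 and 5.30 in WT_RA livers and 4.96, 5.13 and 5.05 in WT livers. KO 2 and KO 3 were the 2 highest arrays, and the KO difference was 0.72 ± 0.24 (adjusted p = 0.177).

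Axl and Mertk, the receptor tyrosine kinases with which macrophages take up dying cells, differed from each other. Axl stood at 5.80, 5.31 and 5.81 in KO_RA livers, 5.80, 7.64 and 6.24 in KO livers, 5.43, 5.92 and 6.04 in WT_RA livers and 5.29, 5.59 and 5.51 in WT livers. KO and WT livers did not overlap, and KO 2 was the highest by over 1. Its KO difference was 1.10 ± 0.36 (adjusted p = 0.17), and another Axl probe set near the floor of the array gave -0.04. Mertk stood at 6.74, 6.61 and 6.77 in KO_RA livers, 5.91, 7.13 and 6.59 in KO livers, 7.15, 7.23 and 6.92 in WT_RA livers and 7.20, 6.87 and 6.64 in WT livers. It was the only listed gene with a negative KO difference, -0.36 ± 0.24 (adjusted p = 0.467), and this came with KO 1 at 5.91.

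Of the leukocyte integrins, Itgb2 had the pattern of the macrophage genes, and Itgam and Itgax showed little. Itgb2, the shared beta chain CD18, stood at 5.66, 5.57 and 5.69 in KO_RA livers, 5.47, 7.55 and 5.97 in KO livers, 5.45, 5.67 and 6.05 in WT_RA livers and 4.92, 5.21 and 5.22 in WT livers. Its differences were 1.21 ± 0.39 in KO (adjusted p = 0.161) and 0.61 ± 0.39 in WT_RA livers, each against WT. Itgax, the alpha chain CD11c of dendritic cells and some macrophages, stood at 5.67, 5.30 and 5.34 in KO_RA livers, 5.74, 5.58 and 5.48 in KO livers, 5.23, 5.37 and 5.54 in WT_RA livers and 5.17, 5.31 and 5.61 in WT livers. Itgam, the alpha chain CD11b of monocytes and neutrophils, which Kupffer cells carry at low level, stood at 4.37, 4.11 and 4.38 in KO_RA livers, 4.48, 4.30 and 4.18 in KO livers, 4.11, 4.13 and 4.08 in WT_RA livers and 4.02, 4.12 and 4.25 in WT livers. The Itgam means lay below the lower quartile in all 4 groups, and KO 2 was not its highest array. The KO differences were 0.23 ± 0.14 for Itgax and 0.19 ± 0.10 for Itgam (adjusted p = 0.409 and 0.385).

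Genes of all leukocytes were again highest in KO means. Ptprc, which encodes CD45, stood at 5.96, 5.45 and 6.12 in KO_RA livers, 6.07, 8.08 and 6.53 in KO livers, 6.20, 6.15 and 7.10 in WT_RA livers and 5.27, 5.55 and 5.84 in WT livers. KO differed from WT by 1.34 ± 0.43 (adjusted p = 0.161), WT_RA from WT by 0.93 ± 0.43, and KO_RA lay below WT_RA without overlap. Cd53, a tetraspanin of leukocytes, stood at 5.79, 5.5 and 5.95 in KO_RA livers, 5.92, 7.57 and 6.57 in KO livers, 5.68, 5.67 and 6.67 in WT_RA livers and 5.32, 5.5 and 5.65 in WT livers. Its KO difference was 1.20 ± 0.36 (adjusted p = 0.137). Laptm5, a lysosomal membrane protein of leukocytes, stood at 6.92, 6.90 and 7.26 in KO_RA livers, 6.77, 7.97 and 7.12 in KO livers, 6.89, 7.04 and 7.11 in WT_RA livers and 6.67, 6.87 and 6.87 in WT livers. The probe set used gave 0.21 ± 0.23 in WT_RA and 0.48 ± 0.23 in KO livers, whereas a dimmer Laptm5 probe set gave 1.24 and 1.30 and one of nearly the same level 0.003 and 0.39, so its size rests on the probe set. Coro1a, an actin-binding protein, and Cd52, a small surface glycoprotein, had KO differences of 0.51 ± 0.26 and 0.75 ± 0.33, and in WT_RA livers 0.43 ± 0.26 and -0.01 ± 0.33, each against WT.

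Lysosomal and effector genes held some of the widest ranges. Ctss, which encodes cathepsin S, a protease of antigen presentation, stood at 8.16, 8.15 and 8.39 in KO_RA livers, 8.10, 10.58 and 9.05 in KO livers, 8.16, 8.51 and 9.54 in WT_RA livers and 7.43, 7.52 and 7.82 in WT livers. All 9 other arrays lay above the WT arrays, with differences of 1.66 ± 0.49 for KO (adjusted p = 0.136) and 1.15 ± 0.49 for WT_RA (adjusted p = 0.377). Mpeg1, the pore-forming protein perforin-2 of phagocytes, stood at 8.51, 8.73 and 8.76 in KO_RA livers, 8.17, 11.06 and 9.25 in KO livers, 8.43, 8.79 and 9.37 in WT_RA livers and 8.27, 8.70 and 9.23 in WT livers. KO 2 exceeded every other array clearly. The differences against WT were 0.76 ± 0.54 for KO (adjusted p = 0.499) and 0.13 ± 0.54 for WT_RA (adjusted p = 0.968), and the groups overlapped in both. Lgmn, which encodes the protease legumain, stood at 8.23, 8.34 and 8.09 in KO_RA livers, 7.52, 9.11 and 8.44 in KO livers, 8.38, 8.52 and 8.51 in WT_RA livers and 8.29, 7.90 and 7.99 in WT livers. It is also made outside macrophages, and its differences were 0.41 ± 0.29 in WT_RA and 0.30 ± 0.29 in KO livers.

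The other members of this role gave KO differences of 1.38 ± 0.43 for Lyz2 (lysozyme), 1.18 ± 0.31 for Cd68 (macrosialin), 1.21 ± 0.41 for Aif1 (IBA1) and 1.11 ± 0.34 for Slc11a1 (the metal transporter NRAMP1), with adjusted p between 0.093 and 0.18. In WT_RA livers the same genes gave 1.0 ± 0.43, 0.64 ± 0.31, 0.22 ± 0.41 and 0.37 ± 0.34. For these 4 genes the 3 KO arrays all lay above the WT arrays. Aif1 was dim, with means below the lower quartile in WT and KO_RA livers. Cybb, which encodes the membrane subunit of the phagocyte oxidase, stood at 5.86, 5.70 and 5.74 in KO_RA livers, 5.51, 7.10 and 6.03 in KO livers, 5.41, 5.44 and 5.52 in WT_RA livers and 5.34, 5.21 and 5.24 in WT livers. It was the only listed gene with KO_RA above WT_RA without overlap, by 0.31 ± 0.28 (adjusted p = 0.623). Ncf1, the organizing subunit in the cytosol, stood at 5.47, 5.11 and 5.33 in KO_RA livers, 5.5, 5.76 and 5.46 in KO livers, 5.37, 5.27 and 5.5 in WT_RA livers and 5.04, 5.31 and 4.99 in WT livers. KO exceeded WT by 0.46 ± 0.13 without overlap (adjusted p = 0.112), and another Ncf1 probe set gave 0.07.

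**Figure D3:**
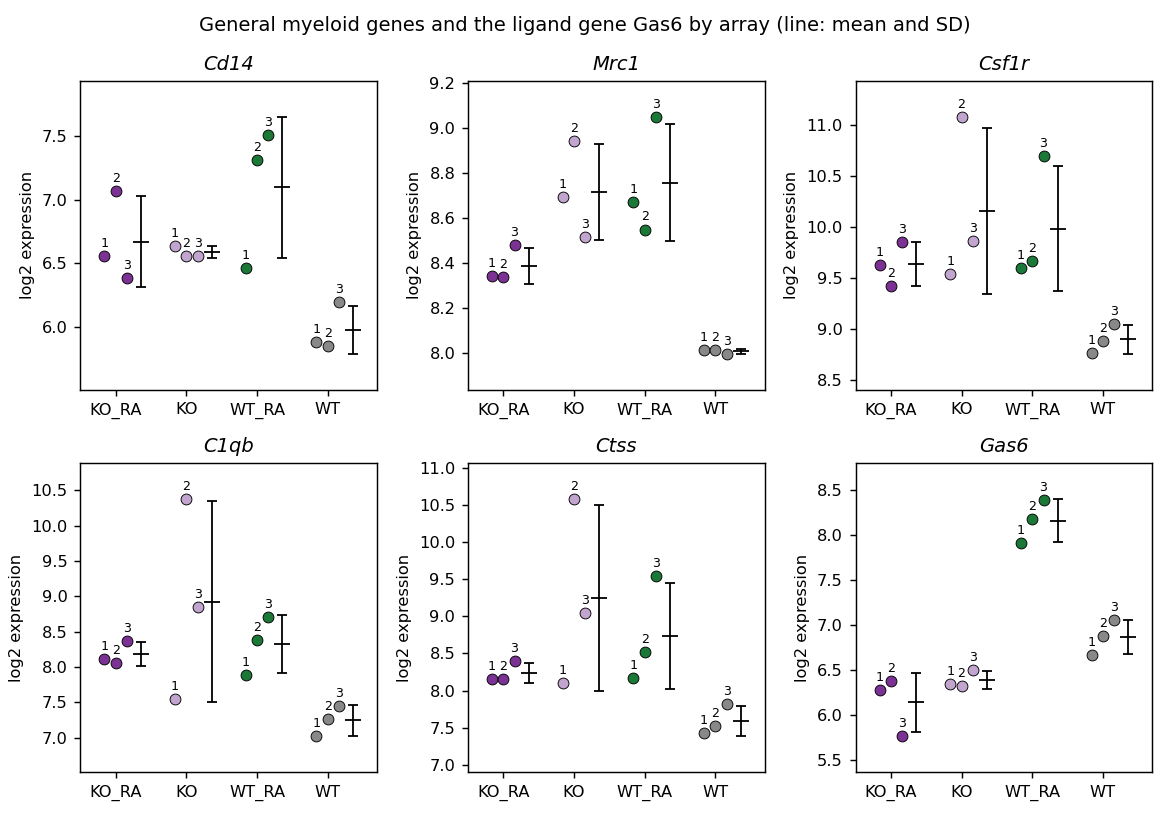
Log2 expression of 5 general myeloid genes and of Gas6, a ligand of Axl and Mertk, on the arrays of the 4 groups (each panel with its own vertical scale). Points are livers labelled by replicate number, and the line is the mean with SD (n = 3). Csf1r, C1qb and Ctss share a wide KO spread with KO 2 on top, Cd14 and Mrc1 do not, and Gas6 is high in WT_RA livers only.

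In wild type mice on retinoic acid 3 listed genes rose by test, Cd163, Cd14 and Mrc1, and none fell. That is 3 of 38, where 1.27% of all genes were called in either direction. Before adjustment 12 of the 38 had p under 0.05, all higher, against 11.7% of all genes in either direction. Differences were above 0 for 36 of 38 genes, with a median of 0.48, against -0.01 for all genes. The Kupffer-specific median was 0.86 and the general myeloid median 0.39. Among the 22 of 38 genes that passed a filter on dim probe sets, they were 0.88 and 0.75. WT_RA lay above WT without overlap for 23 of 38 genes, 5 of 6 Kupffer-specific and 18 of 32 general, where 8.77% of all genes did so. Without WT_RA 3, the number was again 23 (11.7% of all genes), the median 0.40 and the number called 1, Cd163, where 0.508% of all genes were called. It was 1 as well without WT 1, WT 2 or WT 3 (0.863%, 0.508% and 0.379% of all genes). Without any other single array it was between 2 and 4 (0.452% to 1.71% of all genes).

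RXRα deficiency on the normal diet came with higher values of nearly the whole list, but the call depended on single livers. By test 1 of 38 genes rose, Mrc1, where 1.32% of all genes were called. Before adjustment 31 of 38 had p under 0.05, all higher, against 16.3% of all genes in either direction. Differences were above 0 for 37 genes, with a median of 0.95, against 0.02 for all genes. The Kupffer-specific median was 1.10 and the general myeloid median 0.935. KO lay above WT without overlap for 24 of 38 genes, where 9.85% of all genes did so.

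Leaving out KO 1 gave 21 called genes (1.75% of all genes were called), all higher, among them all 6 Kupffer-specific genes, with a median of 1.36, and 35 of 38 genes without overlap (14.1% of all genes). Leaving out KO 2 gave 0 called genes (0.533% of all genes), with 26 at p under 0.05, a median of 0.56, and 24 without overlap (15.6% of all genes). The number was 0 too without WT 1, WT 2 or WT 3 (0.573%, 0.412% and 0.823% of all genes), and 3 without WT_RA 3 (1.61%). With both KO 1 and WT_RA 3 left out, 26 genes were called (2.15% of all genes). The higher values in KO livers were thus present in KO 2 and KO 3 and small in KO 1, which was also the array with the lowest beta-actin control, and the part of that in the result was not tested.

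Single differences depended on these arrays too. Without KO 1 the KO difference grew by over 1.5 times for 6 genes, to 1.97 for C1qa, 1.67 for Marco, 1.42 for Mpeg1, 0.81 for Coro1a, 0.74 for Laptm5 and 0.72 for Lgmn. It shrank as much for Mertk (-0.04) and Itgam (0.11). Without KO 2 it shrank by over 1.5 times for 27 of 38 genes and turned sign for 2, Lgmn and Mpeg1. Without WT_RA 3 the WT_RA difference shrank by over 1.5 times for 11 genes. These were Ctss (0.75), Cd5l (0.55), Tyrobp (0.44), Folr2 (0.28), Slc11a1 (0.23), Axl (0.21), Cd53 (0.19), Fcer1g (0.17), Spi1 (0.07), Adgre1 (0.01) and Itgam (-0.01). The difference turned sign for 3, Msr1, Itgax and Mpeg1, and grew for Cd52, where it stayed near 0 (-0.05). In KO_RA against KO, leaving out KO 1 enlarged 20 of 38 differences by over 1.5 times, shrank 1 as much and turned the sign of 2. In KO_RA against WT_RA, leaving out WT_RA 3 shrank 15, enlarged 4 and turned the sign of 12. There the Mrc1 difference went from -0.37 to -0.22.

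**Figure D4:**
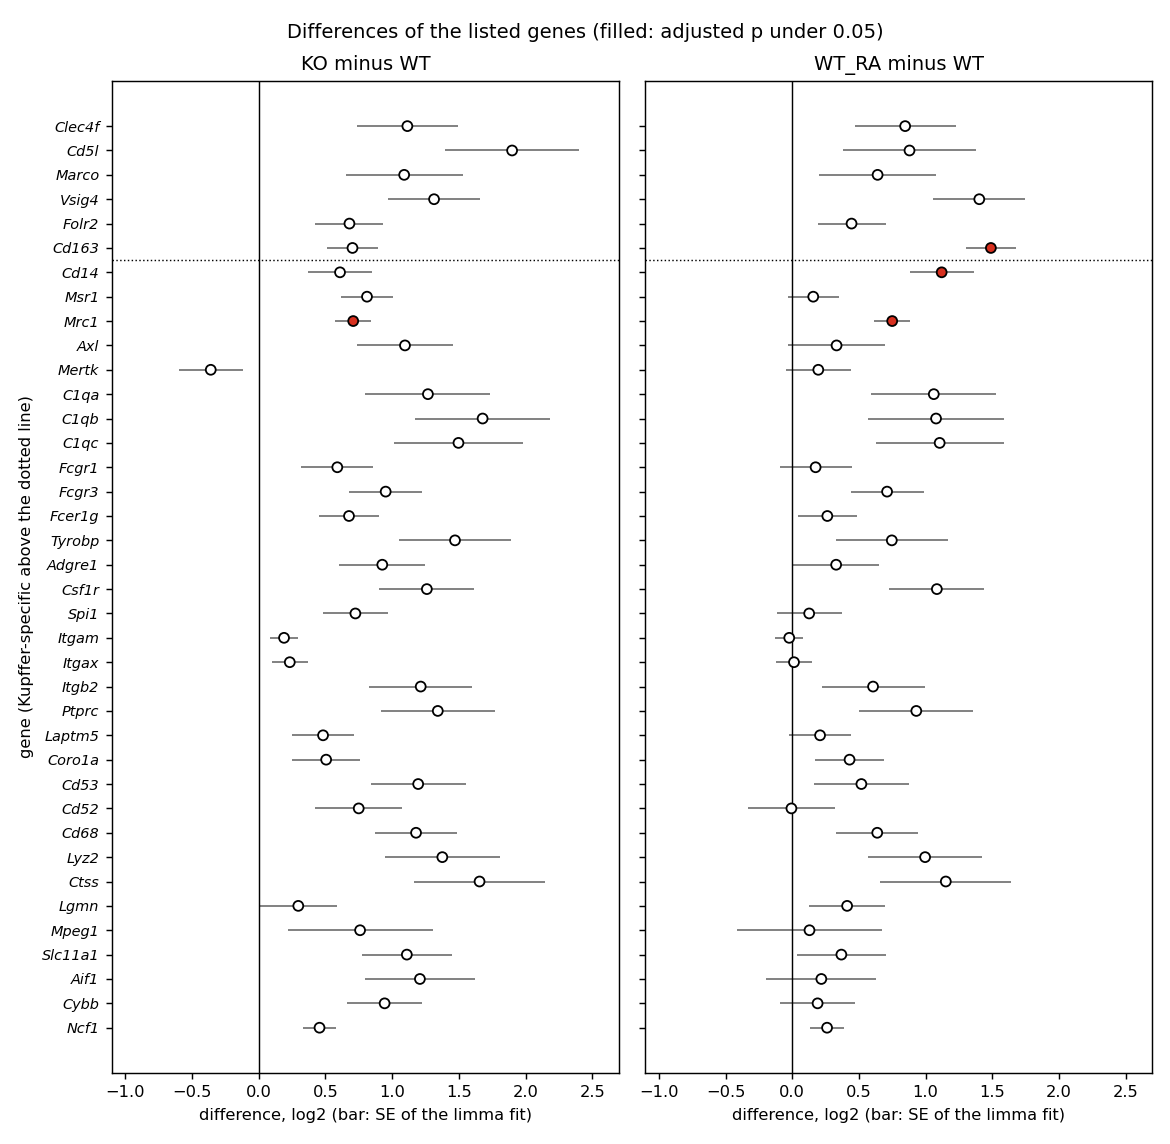
Differences of the 38 genes (rows) on the log2 scale, KO minus WT (left) and WT_RA minus WT (right), with bars of 1 SE of the limma fit. Filled points have an adjusted p under 0.05, namely Mrc1 on the left and Cd163, Cd14 and Mrc1 on the right, and 37 and 36 of 38 points lie above 0.

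Retinoic acid in KO mice came with lower values, and 0 of 38 genes were called, where 0.5% of all genes were. Before adjustment 14 had p under 0.05 with limma, all lower, against 14% of all genes in either direction. Array weights gave 2 calls (Cd5l and Msr1), where 2.44% of all genes were called. Differences were below 0 for 36 genes, with a median of -0.55 (-0.42 Kupffer-specific, -0.61 general), against -0.03 for all genes. KO_RA lay below KO without overlap for 6 genes, Msr1, Mrc1, Fcgr3, Tyrobp, Adgre1 and Aif1, where 12.3% of all genes did so. Without KO 1 the 6 became 29 (17.7% of all genes) with a median of -0.90, and without KO 2 they stayed 6 (19.1% of all genes) with a median of -0.12. Leaving out KO 1 gave 1 call, Cd5l (0.549% of all genes), and leaving out WT_RA 3 gave 1 call, Msr1 (0.621% of all genes). The size of this difference thus rested mainly on KO 2.

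Under RA the genotypes were closer. KO_RA against WT_RA gave 1 called gene of 38, Cd163, lower in KO_RA, where 3.95% of all genes were called. Only 2 genes had p under 0.05, Cd163 and Mrc1 (-0.37 ± 0.13, adjusted p = 0.158), against 17.8% of all genes. The median difference was -0.16 (-0.40 Kupffer-specific, -0.15 general), and -0.01 without WT_RA 3. KO_RA lay below WT_RA without overlap for 7 genes, Cd163, Mrc1, Mertk, Fcgr3, Tyrobp, Ptprc and Lgmn, where 14.3% of all genes did so. The number called was 0 without WT 2, WT_RA 2, WT_RA 3, KO 3, KO_RA 1 or KO_RA 3 (1.37% to 3.22% of all genes). Without KO 2 it was 2 (3.76% of all genes).

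The RA effect in KO mice minus the RA effect in wild type mice was below 0 for 38 of 38 genes, with a median of -1.24 (-0.03 for all genes). By test 0 of 38 were called, where 0.00807% of all genes, a single gene, were. Before adjustment 24 had p under 0.05 with limma, against 11.7% of all genes. The lowest adjusted p belonged to Mrc1 (-1.08 ± 0.19, adjusted p = 0.0777) and Cd163 (-1.49 ± 0.27, adjusted p = 0.085). Cd5l gave -2.33 ± 0.71 (adjusted p = 0.255) and Ctss -2.16 ± 0.69 (adjusted p = 0.27). Leaving out KO 1 gave 2 calls, Cd5l and Cd163 (0.113% of all genes). Leaving out WT_RA 1 gave 1 call, Cd163 (0.0565% of all genes). The median was -1.62 without KO 1, -1.03 without WT_RA 3 and -0.72 without KO 2. The 5 comparisons share arrays, so their values are not independent of each other.

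Order among groups was alike over the list. The KO mean was the highest of the 4 group means for 32 of 38 genes (34.0% of all genes) and the WT mean the lowest for 32 (22.7% of all genes). WT_RA had the highest mean for the other 6, Vsig4, Cd163, Cd14, Mrc1, Mertk and Lgmn. Per array, the Kupffer-specific median minus the general myeloid median was 0.21, 0.41 and 0.32 in KO_RA livers, -0.11, 0.30 and 0.41 in KO livers, 0.46, 0.31 and 0.72 in WT_RA livers, and 0.14, 0.00 and -0.13 in WT livers. All 6 livers on RA lay above all WT livers in this measure, while KO livers spanned both. With Cd163 left out of the Kupffer-specific genes, a choice made after seeing the data, it was 0.14 to 0.35 in KO_RA, -0.24 to 0.41 in KO, 0.21 to 0.54 in WT_RA and -0.07 to 0.06 in WT livers. Levels of different probe sets cannot be compared, so this sets differences from WT against each other. The measure includes dim general myeloid genes and was not repeated without them. With the filter on dim probe sets the 2 medians of WT_RA against WT were closer, at 0.88 and 0.75.

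Lists of other blood and sinusoidal cells had smaller median differences than the listed genes, although single markers differed as much. Means lay below the lower quartile in all 4 groups for 4 of 7 monocyte, 3 of 10 T and NK cell and 2 of 6 dendritic cell genes. That held for 0 endothelial and 0 neutrophil genes and for 1 of the 38 listed genes. The medians of the dimmer lists are thus not a like comparison. On the KO arrays 1, 2 and 3 the endothelial list (14 genes) had medians of 0.22, 0.48 and 0.32 relative to WT, the monocyte list (7 genes) 0.21, 0.26 and 0.21, the T and NK cell list (10 genes) 0.24, 0.29 and 0.11, and the neutrophil list (11 genes) 0.27, 0.17 and 0.13. The Kupffer-specific medians on these arrays were 0.20, 2.13 and 1.09, so on KO 1 they were below those of all these lists. The general myeloid medians were 0.31, 1.83 and 0.68. KO 2 did not stand out in the neutrophil list as it did in the macrophage genes. On the WT_RA arrays 1, 2 and 3 the endothelial medians were -0.10, -0.07 and 0.01, the monocyte medians -0.11, 0.03 and 0.16 and the neutrophil medians -0.08, 0.06 and 0.27. In WT_RA against WT, 0 of 84 genes in the 10 lists of other cell types were called by limma, where 1.27% of all genes were. Before adjustment 13 had p under 0.05 (8 higher), against 11.7% of all genes in either direction.

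In KO against WT, 1 of 84 was called (1.32% of all genes), the endothelial nuclease gene Dnase1l3, which rose by 0.88 ± 0.15 (adjusted p = 0.0179). Before adjustment 25 of 84 had p under 0.05, 24 of them higher, against 16.3% of all genes in either direction. Among them were 10 of 14 endothelial and 5 of 10 T and NK cell genes, all higher. In KO_RA against KO, 6 of 84 were called (0.5% of all genes). Of these, 4 of 14 endothelial genes fell, Dnase1l3 by 1.63, Tek by 0.99, Gpr182 by 0.91 and Fcgr2b by 0.46 (adjusted p between 0.000879 and 0.0419). Alas2, the erythroid enzyme of haem synthesis, fell by 3.68 (adjusted p = 0.0405), and Tat, which encodes the hepatocyte enzyme tyrosine aminotransferase, rose by 0.92 ± 0.16 (adjusted p = 0.0376). In fits without 1 array the call of Fcgr2b was lost in 11 of 12, that of Alas2 in 9 and that of Tat in 5. Those of Dnase1l3, Gpr182 and Tek were lost in at most 2. With only the groups of the contrast, the calls of Fcgr2b, Tat, Gpr182 and Tek and the KO call of Dnase1l3 were lost. Both Dnase1l3 calls were lost with the most variable probe set. In KO against WT, the medians of all lists of other cell types but the hepatocyte list (-0.06) lay above 0, like those of the listed genes. They ran from 0.05 in the cholangiocyte list to 0.31 in the endothelial list. The part of these cells in the result was not tested. Ccr2, the chemokine receptor of inflammatory monocytes, was at 4.87, 4.37 and 4.64 in KO_RA, 4.89, 5.01 and 5.0 in KO, 4.39, 4.55 and 4.79 in WT_RA and 4.38, 4.60 and 4.65 in WT livers, near or below the lower quartile throughout.

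Among markers of neutrophils and monocytes, S100a8, S100a9 and Plac8 are given because their differences were as large as those of the listed genes, a choice made after their values were seen. S100a8, a subunit of calprotectin, stood at 6.57, 7.19 and 5.13 in KO_RA livers, 5.35, 6.13 and 5.03 in KO livers, 5.99, 7.09 and 8.29 in WT_RA livers and 4.57, 4.60 and 5.45 in WT livers. Its difference was 2.25 ± 0.58 for WT_RA against WT (adjusted p = 0.0985), above that of any listed gene, and WT_RA and WT livers did not overlap. S100a9, the other subunit, gave 1.53 ± 0.44 in the same comparison (adjusted p = 0.14). The neutrophil list as a whole (11 genes) had a median of 0.05 there, with 8 genes above 0. Camp, Mpo and Cxcr2 were below 0, at -0.09, -0.08 and -0.06. Plac8, a gene of monocytes and other leukocytes, stood at 6.92, 6.63 and 7.05 in KO_RA livers, 7.11, 9.47 and 8.02 in KO livers, 7.07, 7.34 and 8.15 in WT_RA livers and 6.29, 6.95 and 7.27 in WT livers. KO 2 was its highest array, and its KO difference was 1.36 ± 0.48 (adjusted p = 0.195). The monocyte list as a whole (7 genes) had a median of 0.20 in KO against WT, with 7 genes above 0. The part of these cells in the results was not tested.

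**Figure D5:**
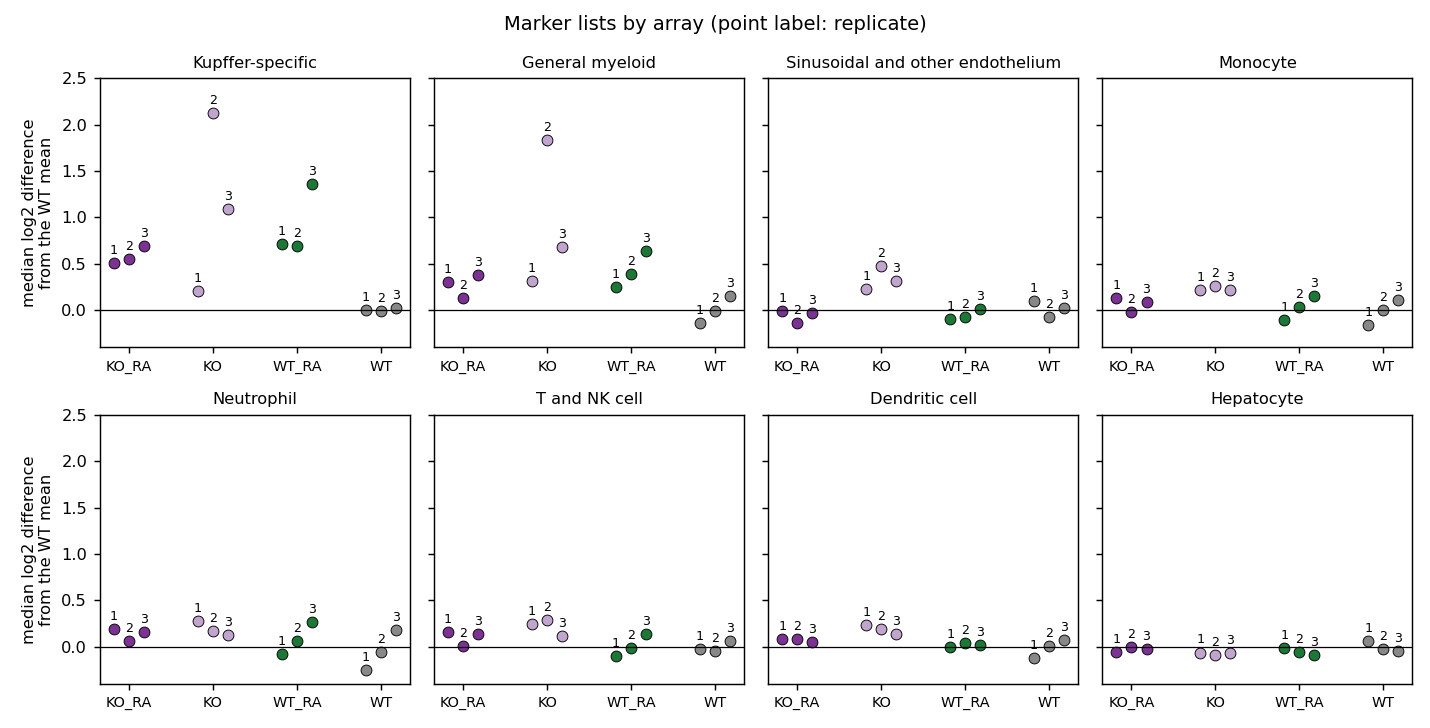
Median log2 difference from the WT mean on each array for the Kupffer-specific and general myeloid genes and for 6 lists of other cell types, on 1 vertical scale. Points are livers labelled by replicate number. KO 2 reaches 2.13 and 1.83 in the first 2 panels and at most 0.48 in the others.

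Partner genes of these pathways were read from 9 lists with 102 measured genes. In KO against WT, 22 of 22 leukocyte signalling genes and 24 of 26 other macrophage surface genes had differences above 0, with medians of 0.36 and 0.29. Of these 48 genes limma called 0, where 1.32% of all genes were called. Before adjustment 23 had p under 0.05, all higher, against 16.3% of all genes in either direction. In WT_RA against WT, 11 of 22 and 18 of 26 lay above 0, with medians of 0.00 and 0.19. The 13 lysosomal hydrolases had medians of 0.07 in KO and 0.12 in WT_RA livers. At p under 0.05 before adjustment were 1 and 3 of them, against 16.3% and 11.7% of all genes.

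Gas6, which encodes the bridging ligand of Axl and Mertk, changed most clearly. It stood at 6.28, 6.38 and 5.77 in KO_RA livers, 6.35, 6.32 and 6.50 in KO livers, 7.91, 8.18 and 8.39 in WT_RA livers and 6.67, 6.88 and 7.05 in WT livers. The WT_RA livers lay above all others, and KO and KO_RA livers below WT. Gas6 rose by 1.29 ± 0.17 in WT_RA against WT (adjusted p = 0.00343) and was lower in KO_RA than in WT_RA livers by -2.02 ± 0.17 (adjusted p = 0.00014), and both calls held in 12 of 12 fits without 1 array. The RA effect differed between the genotypes by -1.54 ± 0.24, which did not pass (adjusted p = 0.0611).

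Clec1b, a C-type lectin receptor found on Kupffer cells and platelets, stood at 7.42, 7.59 and 7.35 in KO_RA, 6.89, 8.22 and 7.21 in KO, 7.80, 7.46 and 8.24 in WT_RA and 6.46, 6.12 and 6.07 in WT livers. All 9 other arrays lay above WT, and the rise of 1.62 ± 0.29 in WT_RA passed (adjusted p = 0.0206), while 1.23 ± 0.29 in KO did not (adjusted p = 0.0612). Ccl6, a chemokine that mouse macrophages secrete, stood at 7.37, 7.52 and 7.6 in KO_RA, 6.07, 7.05 and 6.29 in KO, 6.69, 7.75 and 8.06 in WT_RA and 5.96, 5.98 and 5.68 in WT livers. It rose by 1.63 ± 0.31 in WT_RA against WT (adjusted p = 0.026), and KO_RA exceeded KO without overlap, by 1.02 ± 0.31 (adjusted p = 0.167), opposite to most listed genes. Without 1 array the Ccl6 call was lost in 5 of 12 fits, those without any 1 of the WT arrays, WT_RA 2 or WT_RA 3, and the Clec1b call in 3, those without WT 2, WT 3 or WT_RA 3.

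Of the transcription factors, Cebpa and Cebpb, which hepatocytes also express, changed. Cebpa fell by 0.85 in WT_RA against WT livers (adjusted p = 0.0102) and was higher by 0.53 ± 0.13 in KO_RA than in WT_RA livers (adjusted p = 0.0448). Cebpb fell by 0.87 in KO against WT livers (adjusted p = 0.0423), and rose by 1.14 ± 0.18 in KO_RA against KO livers (adjusted p = 0.0252). Bhlhe40 was higher by 0.57 ± 0.13 in KO_RA than in WT_RA livers (adjusted p = 0.0263). Leaving out 1 array ended the Cebpb call in KO livers in 10 of 12 fits and that in KO_RA livers in 5. It ended the Cebpa call between KO_RA and WT_RA livers in 7 of 12 fits, that in WT_RA against WT in 1 and the Bhlhe40 call in 4.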

How the data were processed

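Each of the 12 livers was measured on its own array, and the sample titles gave its group and replicate number. The authors deposited 1 log2 value per probe set and array. Per the submitters' processing notes these were made with RMA (which corrects background, quantile-normalizes and summarizes probes) and Partek 6.11. The paper's methods name MAS5 instead and keep probe signals by a threshold on p. Normalization was not repeated from scanner files.

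Of 22690 probe sets, 20380 had 1 gene symbol in the platform annotation, 691 had several, 1555 had none and 64 were controls. The brightest probe set on average stood for each of 12393 genes, dim ones included. The limma model (version 3.58.1 in R 4.3.3) had a mean for each group, all 12 arrays and 8 residual degrees of freedom. It gave 5 contrasts with two-sided moderated tests, and Benjamini-Hochberg adjustment covered all genes of a contrast. Errors are SE of this model with n = 3 arrays per group, and the number of arrays limits the precision. The model was also run on simulated data with independent noise of the same spread in all 4 groups. The listed genes had a wider spread in KO livers and varied together, so that run does not check the model for them.

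The listed genes, the other lists and the tests were chosen with earlier results of these data known. Values on every array are given for the Kupffer-specific genes, for genes called in any contrast and for up to 3 genes of highest mean level in each role group. Partner genes are named where called. Alternatives were a replicate block, further quantile normalization, median centring, the most variable probe set, a filter on dim probe sets, array weights, another prior, only the groups of a contrast, and dropping 1 array or KO 1 and WT_RA 3 together. Promoter sequences are those of RefSeq (GRCm38.p6), and none was read from chromosome 18, which holds Cd14 and Csf1r.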

Additional observations from a re-analysis of the deposited data

Results flagged for a closer look

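For 3 listed genes every WT_RA liver lay above every WT liver and every KO_RA liver below every KO liver, the opposite order in the 2 genotypes. Of all 12393 genes 91 did so (0.734%). The RA effect in KO minus that in wild type mice was -1.08 for Mrc1, the mannose receptor (adjusted p = 0.0777), -1.49 for Fcgr3, an IgG receptor (adjusted p = 0.223), and -2.01 for Tyrobp, the adaptor DAP12 (adjusted p = 0.251). The difference was tested by the interaction term of limma and did not pass for any of the 3. In fits without 1 array these values ran between -1.18 and -0.93, between -1.77 and -1.04, and between -2.49 and -1.41.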

How the results depend on the processing

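The numbers of listed genes called in WT_RA against WT, KO against WT, KO_RA against KO, KO_RA against WT_RA and the difference between RA effects were 3, 1, 0, 1 and 0. Array weights gave 8, 31, 2, 1 and 9, with WT 2 weighted at 7.12 and KO 1 at 0.32, and the share of all genes called was then 8.63%, 14%, 2.44%, 8.59% and 1.99%. Without KO 1 and WT_RA 3 they were 1, 26, 5, 0 and 2 (0.767%, 2.15%, 0.888%, 2.52% and 0.0968% of all genes). With the groups of the contrast alone, 0 were called in KO against WT (0.565% of all genes), with 27 at p under 0.05 in limma. In WT_RA against WT 4 were called, Cd163, C1qa, C1qc and Fcgr3 (0.831% of all genes), with 22 at p under 0.05 in limma. In KO_RA against WT_RA 1 was called, Fcgr3 in place of Cd163 (3.52% of all genes). Without 1 array the numbers called ranged from 1 to 4, 0 to 21, 0 to 1, 0 to 2 and 0 to 2. The general myeloid median of the difference between RA effects ranged from -1.60 to -0.72. The filter on dim probe sets left 22 of 38 genes and put the general myeloid median of WT_RA against WT at 0.75. Same-numbered arrays shared only a number, with correlations of their deviations between -0.46 and 0.27, over 0.1 in 5 of 18 pairs. With the replicate block the calls were 2, 0, 0, 1 and 0 (0.912%, 0.791%, 0.484%, 3.17% and 0.0161% of all genes).

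In at least 1 setting the sign of the difference turned for 5, 2, 11, 19 and 2 of the 38 genes in the 5 comparisons, 0 of them called by limma with all arrays. In KO_RA against WT_RA the genes above 0 numbered 18 without WT_RA 3 and 6 with all arrays, and in KO_RA against KO 10 without KO 2 and 2 with all arrays. Of the values against WT that turned, in WT_RA against WT leaving out both arrays that stood apart gave -0.071 for Msr1, -0.066 for Itgax and -0.126 for Mpeg1, and Cd52 was 0.014 with quantile normalization, 0.01 with centring and 0.003 with array weights. Without 1 array, the WT_RA ranges were -0.071 to 0.298 for Msr1, -0.076 to 0.037 for Itgam, -0.082 to 0.133 for Itgax, -0.077 to 0.089 for Cd52 and -0.126 to 0.378 for Mpeg1. The KO ranges were -0.08 to 0.716 for Lgmn and -0.026 to 1.422 for Mpeg1. The causes were not tested.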
